A study of Mus musculus with 2 samples.

Results

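Macrophages of the newborn mouse kidney were the subject, and 217 such cells were found among 14565 deposited single-cell profiles. They were chosen by their measured expression of 8 marker genes: the complement subunit genes C1qa, C1qb and C1qc, the growth factor receptor gene Csf1r, the chemokine gene Pf4, the mannose receptor gene Mrc1, and the signalling adaptor genes Fcer1g and Tyrobp. A cell qualified with at least 4 of the 8 at 1 or more transcripts and at least 1 C1q gene at 2 or more, and cells with a deposited hybrid doublet score over 1 were dropped. Of 13704 cells kept, 122 of 8487 in the control library and 95 of 5217 in the exposed library qualified, while 9 and 7 further cells were dropped for their hybrid score.

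The study asked how diabetes of the mother bears on kidney development. Droplet 3′ RNA sequencing, in which every captured transcript is counted once by its molecular tag (UMI), was run on whole kidneys of C57BL/6J mice at postnatal day 2. There was 1 library of control mice and 1 of male mice exposed to maternal diabetes (DM_Exp). The labels speak both of pooled cells and of 1 kidney per group, so whether a library held more than 1 animal is not settled, and they state trypsin dissociation and freezing before capture. Each group being 1 library, the exposure could not be tested, no difference has a replicate check, and exposure cannot be told apart from animal or library.

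Tissue macrophages engulf dying cells, iron-laden debris and surplus complement-tagged material, present antigen, and call in other immune cells with chemokines. In the mouse kidney they arrive before birth from yolk sac and fetal liver precursors and live beside the growing nephrons and vessels, where signals through the CSF1 receptor keep them alive. Monocytes are their circulating relatives and can also become tissue macrophages. Interferons, cytokines released on infection or by cells that sense nucleic acid, switch on a shared set of antiviral and antigen-presentation genes in most cell types.

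Macrophage UMIs totalled 349195 (control) and 358094 (exposed) over the 8930 genes listed for both. Median UMIs per macrophage were 2682 and 3414, with ranges of 996 to 6923 and 1198 to 10786. Other cells of the same libraries had medians of 3308 and 4097, so the exposed library was deeper per cell in both. The median share of mitochondrial UMIs was 5.76% in control and 4.39% in exposed macrophages, and 7.09% and 5.27% in other cells. The libraries shared 14 cell barcodes, none of them a macrophage. Levels are a gene’s UMIs summed over the macrophages, per 1000000 of all their UMIs (CPM), and all 95% intervals cover counting error only, leaving out the spread between cells and between animals.

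Markers outside the rule fitted the macrophage label. Of 16 further macrophage markers 14 were listed for both libraries, and no listed one was at 0 in the macrophages of either. Together they summed to 12334 CPM in control and 11335 CPM in exposed macrophages, against 392 and 387 CPM in other cells, and 119 of 122 and 93 of 95 macrophages held at least 2 of them. All 8 rule markers were found in 73 control and 67 exposed cells. Just inside the rule, with exactly 4 markers and a C1q gene at 2 UMIs, were 5 control cells and 1 exposed cell. Just outside it were 3 control cells and 1 exposed cell with 3 markers and a C1q gene at 2 UMIs, and 12 and 2 cells with 4 or 5 markers but no C1q gene at 2 UMIs.

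**Figure D1:**
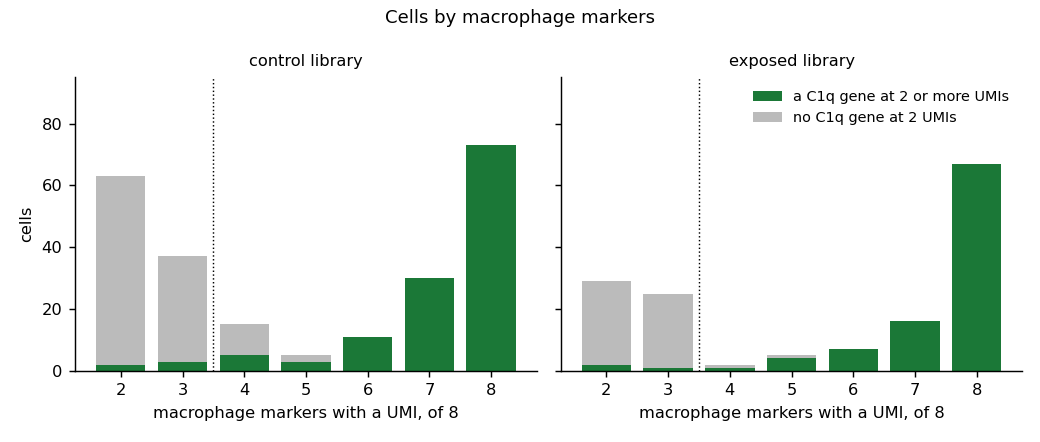
Cells (y axis) by how many of the 8 macrophage markers had a UMI (x axis, from 2 up), in each library; green bars are cells with a C1q gene at 2 or more UMIs, grey bars cells without, and the dotted line is the minimum of 4 markers. The rule sits in a trough: 73 control and 67 exposed macrophages hold all 8 markers, and only 5 and 1 sit at exactly 4.

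Macrophages made up 1.44% of kept control cells (interval by Clopper-Pearson 1.20 to 1.71) and 1.82% of kept exposed cells (1.48 to 2.22). The difference of 0.383 percentage points had a Newcombe interval of -0.0460 to 0.846, which covers counting error only and included 0. As description only, since these genes chose the cells, C1qa stood at 4708 CPM in control and 4644 CPM in exposed macrophages, C1qb at 4722 and 4915, and C1qc at 3686 and 4007. Csf1r stood at 893 and 827 CPM, Pf4 at 4132 and 3636, and Mrc1 at 779 and 670. The adaptors Fcer1g and Tyrobp stood at 3362 and 3655 CPM and at 3786 and 2949 CPM.

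A pair of promoter sets is shown as description, from 250 bases before to 50 after the start site, as given by RefSeq on build GRCm38.p6. Each promoter shown was picked because it holds the motif of its set, so its match is no result. Promoters of Oasl2, H2-K1, H2-D1, Psmb8 and Psmb9, also higher in exposed macrophages, held no match to the first motif. Capitals mark the motif letters, searched on both strands, so a match on the other strand reads as the reverse complement. The first set belongs to interferon response genes that stood higher in exposed macrophages, with capitals at GAAANNGAAA, the repeat in which N is any base and to which interferon-regulated factors are known to bind. The entries are Ifit3 (chr19:34583279-34583578, plus strand), Rsad2 (chr12:26456403-26456702, minus strand), Bst2 (chr8:71537423-71537722, minus strand) and B2m (chr2:122147437-122147736, plus strand). In Bst2 the 2 matches overlap.
Ifit3: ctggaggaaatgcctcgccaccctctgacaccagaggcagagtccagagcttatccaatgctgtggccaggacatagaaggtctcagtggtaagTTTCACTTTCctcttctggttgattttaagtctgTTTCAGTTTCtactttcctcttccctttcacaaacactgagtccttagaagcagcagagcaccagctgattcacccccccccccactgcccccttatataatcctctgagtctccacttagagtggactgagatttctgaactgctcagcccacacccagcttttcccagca
Rsad2: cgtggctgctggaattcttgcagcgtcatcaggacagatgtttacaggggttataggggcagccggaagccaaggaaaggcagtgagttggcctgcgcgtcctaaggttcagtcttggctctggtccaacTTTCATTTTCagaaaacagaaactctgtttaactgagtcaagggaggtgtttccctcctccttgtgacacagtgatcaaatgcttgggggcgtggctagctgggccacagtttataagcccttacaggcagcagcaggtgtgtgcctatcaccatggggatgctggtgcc
Bst2: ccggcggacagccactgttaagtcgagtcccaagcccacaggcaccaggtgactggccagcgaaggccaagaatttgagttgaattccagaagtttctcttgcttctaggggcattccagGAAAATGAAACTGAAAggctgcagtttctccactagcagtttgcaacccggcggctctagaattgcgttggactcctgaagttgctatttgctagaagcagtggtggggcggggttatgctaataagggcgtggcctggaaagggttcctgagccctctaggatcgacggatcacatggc
B2m: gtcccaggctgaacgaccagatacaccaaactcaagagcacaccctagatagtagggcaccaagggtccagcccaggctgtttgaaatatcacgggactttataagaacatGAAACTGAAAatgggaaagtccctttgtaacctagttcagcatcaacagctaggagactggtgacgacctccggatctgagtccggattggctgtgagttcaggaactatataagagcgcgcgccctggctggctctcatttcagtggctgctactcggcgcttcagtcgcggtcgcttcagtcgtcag

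The second set belongs to genes that led macrophages over other kidney cells, with capitals at GAGGAAG, the purine-rich core known to be bound by PU.1, the myeloid factor encoded by Spi1. The entries are Fcrls (chr3:87263475-87263774, minus strand), Ctss (chr3:95526536-95526835, plus strand) and Trem2 (chr17:48346151-48346450, plus strand). Ctss also holds 1 GAAANNGAAA match, left in lower case.
Fcrls: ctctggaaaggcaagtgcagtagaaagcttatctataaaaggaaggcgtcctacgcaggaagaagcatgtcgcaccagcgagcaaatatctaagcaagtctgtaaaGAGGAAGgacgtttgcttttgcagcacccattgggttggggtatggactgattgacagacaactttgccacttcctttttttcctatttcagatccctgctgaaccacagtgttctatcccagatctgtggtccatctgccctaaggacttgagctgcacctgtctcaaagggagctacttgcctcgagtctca
Ctss: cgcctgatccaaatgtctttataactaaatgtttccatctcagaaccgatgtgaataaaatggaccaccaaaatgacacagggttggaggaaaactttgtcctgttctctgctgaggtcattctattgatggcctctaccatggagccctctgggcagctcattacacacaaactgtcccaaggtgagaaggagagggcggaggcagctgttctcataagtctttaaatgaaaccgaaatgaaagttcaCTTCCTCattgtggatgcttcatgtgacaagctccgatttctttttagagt
Trem2: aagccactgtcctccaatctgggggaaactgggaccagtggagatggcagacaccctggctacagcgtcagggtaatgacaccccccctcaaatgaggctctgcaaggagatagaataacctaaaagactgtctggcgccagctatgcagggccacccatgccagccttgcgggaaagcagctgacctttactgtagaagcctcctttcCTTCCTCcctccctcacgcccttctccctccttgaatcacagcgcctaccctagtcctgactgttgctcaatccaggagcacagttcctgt

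Over all 27025 genes with a promoter in the table, 3.99% held GAAANNGAAA and 15.4% held GAGGAAG. Of the 12 interferon genes that stood over 1.5-fold higher in exposed macrophages, 10 had a promoter entry and 5 of these held GAAANNGAAA. It was also held by 2 of the 4 with an entry that did not pass 1.5-fold. Among the 25 genes leading macrophages over other cells, 18 had an entry and 8 of these held GAGGAAG, while 17.4% of 1504 genes measured in macrophages with an entry did. A match describes these letters in these windows and is not a shown binding site.

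By list, 30 of 31 immune signalling genes, 14 of 16 resident macrophage genes, 14 of 15 Fc and phagocytic receptor genes, 11 of 12 chemokine genes and 20 of 26 lysosomal genes were at least 4-fold higher in macrophages than in other kidney cells of both libraries, but 5 of 13 lipid handling genes. Of 1930 genes measured, meaning 50 or more macrophage UMIs over both libraries and none of the 8 rule genes, 236 (12.2%) were at least 4-fold higher in macrophages than in other cells in both libraries. These counts describe the cells that the rule picked and are no test of them. Apoe, the lipid carrier apolipoprotein E, stood at 40550 CPM in control and 37404 CPM in exposed macrophages, against 350 and 294 CPM in other cells. It had a UMI in all 122 and all 95 macrophages, and in 28.4% and 31.1% of other cells. Ms4a7, a membrane protein gene of tissue macrophages, stood at 1008 and 1178 CPM against 0.66 and 0.161 CPM in other cells, in 100 and 83 macrophages. Fcrls, an Fc receptor-like gene known from microglia, stood at 664 and 639 CPM against 0.15 and 0.161 CPM, in 84 and 69 macrophages.

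Among the 25 leading genes, the phagocytic receptors Trem2, which binds lipids, and Fcgr3, which binds antibody, stood at 590 and 681 CPM and at 816 and 804 CPM in control and exposed macrophages. The C-type lectin gene Clec4n stood at 415 and 346 CPM. The lysosomal protease genes Ctss and Ctsc stood at 1360 and 1488 CPM and at 1286 and 1343 CPM, and the lysosomal membrane genes Laptm5 and Cd68 at 914 and 891 CPM and at 518 and 586 CPM. Cx3cr1, the fractalkine receptor gene of resident macrophages, stood at 564 and 522 CPM, and Trf, encoding the iron carrier transferrin, at 716 and 796 CPM. None of these 9 genes passed 1.5-fold between the libraries. The leading genes also held the chemokine genes Ccl2, Ccl3, Ccl4, Ccl12 and Cxcl2. The remaining 8, Aif1, Ly86, af251705, Ms4a6b, Ms4a6c, Lst1, Pld4 and Rgs1, did not pass 1.5-fold between the libraries. Ms4a6b and Ms4a6c are close relatives, and reads may be split between them.

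**Figure D2:**
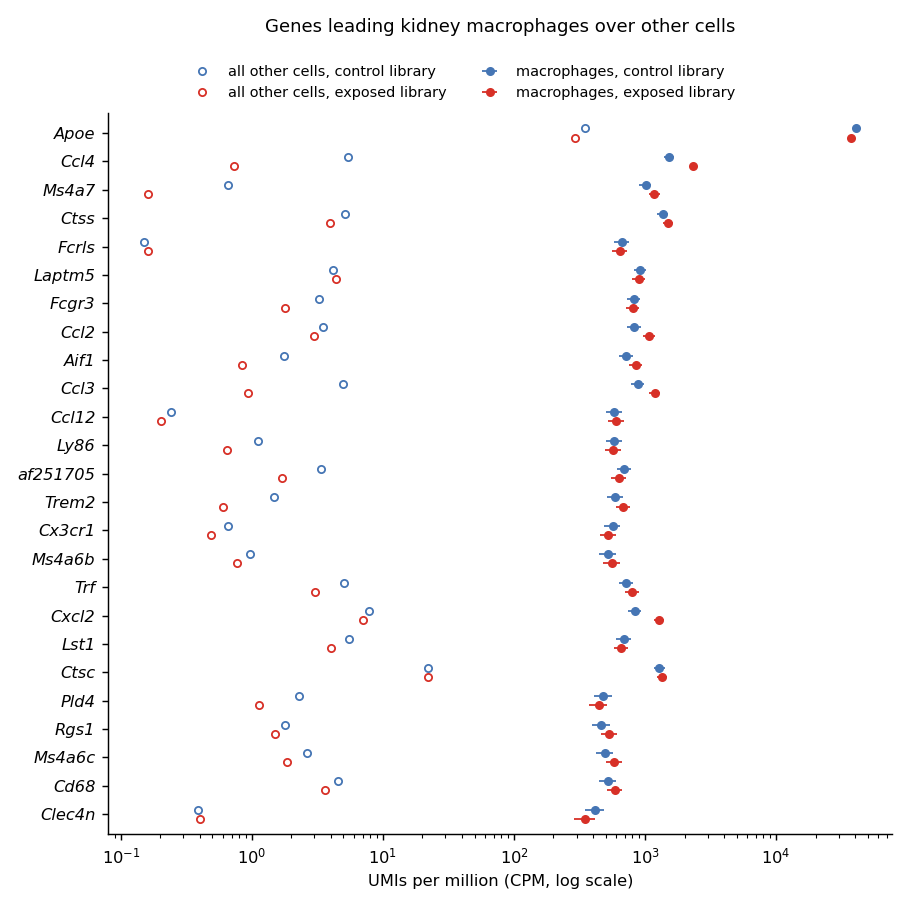
CPM (x axis, log scale) of the 25 genes that led macrophages over other cells, in macrophages (filled, with exact Poisson 95% intervals of counting error) and in all other cells (open), control in blue and exposed in red. Every gene stands far to the right in macrophages of both libraries, as with Fcrls at 664 and 639 CPM against 0.15 and 0.161 CPM, and blue and red lie close together for most.

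Between the libraries, 201 of 1930 genes (10.4%) lay past 1.5-fold on the log2 scale with 10 CPM added to each level, 140 higher in the exposed library (7.25%) and 61 lower (3.16%). With median-of-ratios scaling the split was 111 higher and 87 lower. The median log2 ratio over all 1930 genes was 0.06 in macrophages and 0.07 in other cells. In other cells, which hold far more UMIs, 9 of the same genes lay past 1.5-fold, 4 higher and 5 lower. Of the 236 genes that were 4-fold higher in macrophages, 36 stood over 1.5-fold higher and 2 over 1.5-fold lower in the exposed library, against 7.25% and 3.16% of all genes measured.

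The interferon response genes stood higher in exposed macrophages. Of 17 measured genes of the list 12 were over 1.5-fold higher and 0 lower, against 7.25% and 3.16% of all genes measured, and the median log2 ratio was 0.74 against 0.06 for all genes. Over all 21 listed genes control macrophages held 2184 UMIs and exposed ones 3518, a ratio of 1.57 (1.49 to 1.66), against 1.17 (1.15 to 1.18) in other cells. The list was chosen with earlier results of these data known, and higher interferon-stimulated genes in the exposed library are not independent evidence here.

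Among antiviral genes, Rtp4, an inhibitor of viral replication, had 17 UMIs in 14 control macrophages and 65 UMIs in 40 exposed ones, or 48.7 and 182 CPM. The exposed level was 3.73 times the control level (2.16 to 6.79), and in other cells the ratio was 3.08. Ifit3, of the family that binds viral RNA, had 17 UMIs in 10 cells and 51 in 28 cells, a ratio of 2.93 (1.66 to 5.40). Oasl2, of the oligoadenylate synthetase family, had 19 UMIs in 16 cells and 53 in 35 cells, a ratio of 2.72 (1.58 to 4.87). For these 3 genes more exposed than control macrophages held a UMI although the exposed library had fewer macrophages. Exposed macrophages were also deeper, at a median of 3414 UMIs against 2682, and these cell counts were not matched for depth. Rsad2, encoding viperin, had 18 and 45 UMIs, a ratio of 2.44 (1.38 to 4.47), but 83.3% and 73.3% of them lay in 3 cells. The ubiquitin-like modifier gene Isg15 had 23 and 45 UMIs, a ratio of 1.91 (1.13 to 3.30), while in other cells its ratio was 3.66. Bst2, the virus-tethering protein, stood at 410 and 762 CPM (ratio 1.86, 1.52 to 2.30), and Ifi27l2a at 266 and 522 CPM (ratio 1.96, 1.52 to 2.54).

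The antigen-presentation members stood higher too. H2-K1, an MHC class I heavy chain gene, had 232 UMIs in 94 control and 479 UMIs in 90 exposed macrophages, or 664 and 1338 CPM. Its ratio was 2.01 (1.72 to 2.37) in macrophages and 1.33 in other cells. H2-D1, a second heavy chain gene whose sequence is close enough that reads may be split between them, stood at 1157 and 1885 CPM (ratio 1.63, 1.44 to 1.85). B2m, the light chain, stood at 1157 and 1745 CPM (1.51, 1.33 to 1.71), a value so near 1.5-fold that 9 of 14 alternative settings put it below. The immunoproteasome subunit genes Psmb8 and Psmb9 had ratios of 1.71 (1.28 to 2.29) and 1.63 (1.12 to 2.41). Of the 5 members that did not pass 1.5-fold, Ifitm3 stood at 836 and 1022 CPM, Ifitm2 at 745 and 659 CPM, Ifi27 at 71.6 and 69.8 CPM, Samhd1 at 117 and 134 CPM, and Lgals3bp at 88.8 and 131 CPM.

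**Figure D3:**
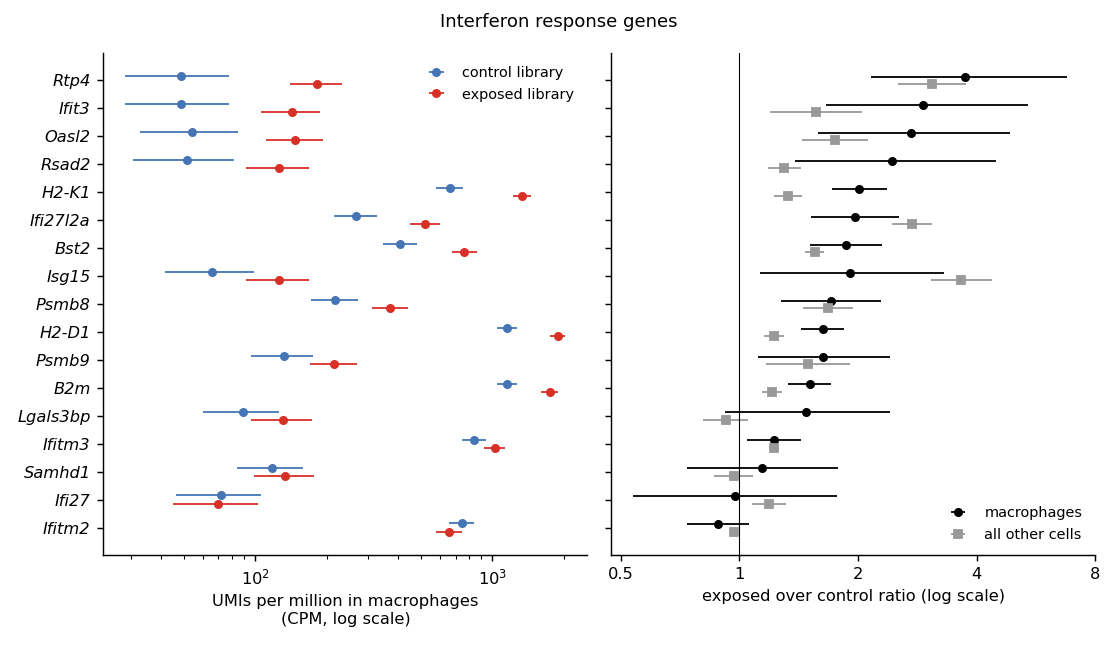
The 17 measured interferon response genes: left, CPM in macrophages (x axis, log scale) of the control (blue) and exposed (red) library; right, the exposed over control ratio (x axis, log scale) in macrophages (black) and in all other cells (grey), with 95% intervals of counting error. Rtp4 is highest at 3.73 in macrophages, Ifitm2 lowest at 0.885, and Isg15, at 1.91, lies below its ratio of 3.66 in other cells.

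The difference was spread over many macrophages. Counting the interferon genes other than those of MHC class I and the immunoproteasome, the median control macrophage gave them 0.239% of its UMIs (quartiles 0.151 to 0.387) and the median exposed one 0.395% (quartiles 0.279 to 0.574). The 3 cells with most of these UMIs held 9.49% and 11.1% of them. In other cells the medians were 0.0787% and 0.0825%. Higher interferon genes were not confined to macrophages: in endothelium 7 of 20 measured genes were over 1.5-fold higher, against 0.846% of all genes measured there, with a median log2 ratio of 0.45. In stroma 5 of 15 were, against 0.144%, with a median of 0.38. Nephron progenitors had 1 of 8, against 0.167%, and a median of 0.07. Tubule cells had 0 of 13, against 0.107%, and a median of 0.10, and podocytes 0 of 4, against 1.45%, and a median of -0.14. Differences between these classes were not tested.

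Cell cycle genes also stood higher in exposed macrophages. Over 25 G2/M genes, which act as cells prepare to divide and divide, control macrophages held 525 UMIs and exposed ones 876, a ratio of 1.63 (1.46 to 1.82), against 1.02 (1.01 to 1.03) in other cells. The 3 cells with most of these UMIs held 30.3% and 39.0% of them. The other cells were not alike: by class the ratio was 1.32 (1.27 to 1.37) in endothelium and 1.05 in tubule cells. It was 0.948 in nephron progenitors, 0.835 in stroma and 0.456 in podocytes, and differences between classes were not tested. Over 21 S phase genes, which act in DNA replication, the sums were 223 and 406 UMIs, a ratio of 1.78 (1.5 to 2.1), against 1.07 (1.06 to 1.09) in other cells. Only 8 of the G2/M genes and 2 of the S phase genes had 50 UMIs, so their counts past 1.5-fold are not read as a share of the lists.

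Among these genes, Cdk1, the kinase that starts mitosis, had 16 UMIs in 7 control and 52 UMIs in 17 exposed macrophages, a ratio of 3.17 (1.78 to 5.95). Mki67, the proliferation antigen, had 14 UMIs in 8 cells and 35 in 15 cells (2.44, 1.28 to 4.90), and the topoisomerase gene Top2a 14 in 9 cells and 37 in 16 cells (2.58, 1.36 to 5.16). Not all moved alike: Cdc20, which opens the exit from mitosis, had 15 and 9 UMIs, and Cenpe, a kinetochore motor, 10 and 5. Outside these lists, and named for the size of their difference, were a pair of further genes that act on replicating or condensing DNA. The replication clamp factor gene 2810417H13Rik, now named Pclaf, had 12 UMIs in 7 cells and 61 in 18 cells, a ratio of 4.96 (2.64 to 10.1), and a ratio of 0.911 in other cells. Smc2, a condensin subunit, had 13 and 42 UMIs (3.15, 1.66 to 6.40). Pclaf and Smc2 were among the 5 genes whose macrophage ratio lay furthest above that of other cells, with Clcn5, Gm6377 and Cd74.

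Measured by cells, 40 of 122 control macrophages (32.8%, 24.6 to 41.9) and 50 of 95 exposed ones (52.6%, 42.1 to 63.0) held UMIs of at least 2 G2/M genes, a difference of 19.8 points (6.60 to 32.3). With every cell thinned to 2000 UMIs, which left out 30 control and 20 exposed macrophages, the shares were 26.1% (24 of 92) and 45.3% (34 of 75), a difference of 19.2 points (4.69 to 33.0). In other cells thinned alike the share was 37.1% in each library. Hmgb2, a chromatin gene on the list that non-dividing cells also express, gave 176 and 291 of the UMIs. For S phase genes the thinned shares were 22.8% and 32.0%, a difference of 9.17 points (-4.27 to 22.6) that included 0. No cell was called cycling from these counts.

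**Figure D4:**
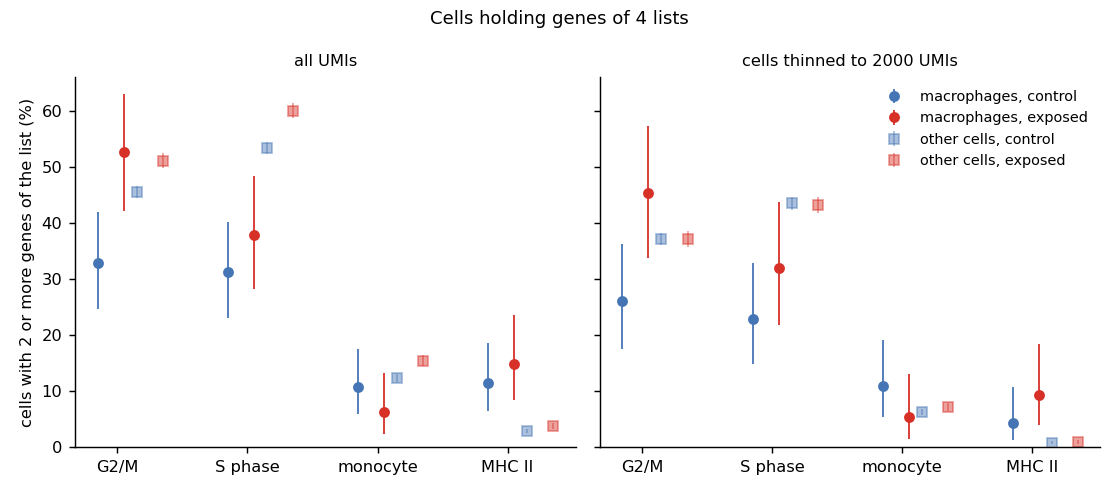
Share of cells (y axis, %) with UMIs of at least 2 genes of the G2/M, S phase, monocyte marker and MHC class II lists, from all UMIs (left) and after thinning each cell to 2000 UMIs (right); circles are macrophages, squares other cells, blue control, red exposed, bars exact binomial 95% intervals. The G2/M share of macrophages is 32.8% and 52.6% from all UMIs and 26.1% and 45.3% after thinning, while other cells stand at 37.1% in both libraries after thinning.

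Of 6 measured genes shared with monocytes 3 were over 1.5-fold lower in exposed macrophages (Fn1, S100a6 and Thbs1) and 0 higher, against 3.16% and 7.25% of all genes measured, while Ifitm3 stood higher by less than 1.5-fold. The median log2 ratio of -0.83 came to -0.36 with each cell weighted equally, and the count of lower genes ran from 1 to 5 over the alternative settings. Over 14 monocyte genes the sums were 2162 and 1566 UMIs, a ratio of 0.706 (0.661 to 0.754), against 0.933 (0.922 to 0.944) in other cells. Lysozyme gene Lyz2, which most macrophages express, gave 1492 and 1025 of these UMIs, in 103 and 82 cells (ratio 0.670, 0.618 to 0.726). Ccr2, the receptor by which monocytes leave the blood, had 18 UMIs in 9 control macrophages and 2 UMIs in 1 exposed macrophage, a ratio of 0.108 (0.0122 to 0.453). S100a6 had 99 UMIs in 19 cells and 31 in 6 cells (0.305, 0.197 to 0.461), with 87.1% of the exposed UMIs in 3 cells. It stood at 284 and 86.6 CPM in macrophages and was also lower in exposed other cells, at 520 and 336 CPM. Lyz2 stood at 105 and 76.4 CPM in other cells, and the log2 ratios of Thbs1 and Fn1 there were -0.19 and 0.02. The matrix genes Fn1 and Thbs1 had ratios of 0.418 (0.226 to 0.742) and 0.443 (0.278 to 0.692), and Ly6c2, a defining monocyte gene, had 5 UMIs in 2 control cells and 0 in exposed ones. At least 2 of the 6 listed monocyte markers were found in 13 control (10.7%) and 6 exposed macrophages (6.32%), a difference of -4.34 points (-11.9 to 3.70) that included 0.

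Several other genes with the largest differences downward were also found in other kidney cells. In the lower library the log2 ratio of macrophages over other cells was -2.12 for Vim, -0.56 for Ahnak and -0.17 for Capg. Vim, the intermediate filament gene, had 68 UMIs in 30 control and 32 in 12 exposed macrophages (0.459, 0.292 to 0.708), while in other cells its ratio was 1.36. Ahnak had 38 and 13 UMIs (0.334, 0.163 to 0.640) and Capg, an actin capping gene of macrophages, 41 and 19 (0.452, 0.248 to 0.796). Summed UMIs of 7 stromal markers in macrophages were 167 (control) and 66 (exposed), with 93 and 47 of them in 1 cell each; the part of such cells in these ratios was not tested.

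Of 13 measured genes listed under lipid handling 5 were over 1.5-fold lower and 0 higher, against 3.16% and 7.25% of all genes. These were Spp1, Cd9, Lgals3, Apoc1 and Fabp4, of which only Apoc1 and Fabp4 encode lipid carriers. Below 1 were 10 of the 13 ratios, the median log2 ratio was -0.37, and the count of lower genes ran from 2 to 6 over the alternative settings. Spp1, encoding osteopontin, had 82 UMIs in 14 control and 32 in 5 exposed cells (0.381, 0.245 to 0.579), with 65.9% and 93.8% in 3 cells. The tetraspanin gene Cd9 had 60 UMIs in 31 cells and 25 in 16 cells (0.406, 0.244 to 0.658). Lgals3, encoding galectin-3, had 131 UMIs in 35 cells and 72 in 30 cells (0.536, 0.396 to 0.720). In the lower library the log2 ratio of macrophages over other cells was -1.44 for Spp1 and -1.38 for Cd9. Lgals3 stood higher in macrophages, at 375 and 201 CPM against 65.8 and 57.9 CPM. Exposed over control, the log2 ratio in other cells was -0.33 for Spp1 and -0.07 for Cd9. The apolipoprotein gene Apoc1 had a ratio of 0.574 (0.353 to 0.918), and of the fatty acid carrier gene Fabp4, which vessel cells express strongly, 91.0% and 82.8% of the UMIs lay in 3 cells. Within 1.5-fold, Apoe had a ratio of 0.922 (0.901 to 0.945), and the cholesterol exporter gene Abca1 and the lysosomal lipase gene Lipa had log2 ratios of -0.31 and -0.37. The 3 members above 1 were Trem2 at 1.16 (0.956 to 1.40), the lipid droplet gene Plin2 at 1.43 (1.19 to 1.72) and the cholesterol carrier gene Npc2.

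Against 10.4% of all genes measured, 0 of 16 resident macrophage genes lay past 1.5-fold, a count too small to set the list apart, and their median log2 ratio was -0.04. Cx3cr1 had 197 and 187 UMIs, the scavenger receptor gene Stab1 198 and 198, the transcription factor gene Maf 279 and 265, and the selenium carrier gene Sepp1 1022 and 1016. Of 15 Fc and phagocytic receptor genes 0 passed 1.5-fold, which is likewise near the share of all genes, with a median log2 ratio of 0.11 and Fcgr4 nearest at 128.9 and 187 CPM. Of 26 lysosomal genes 1 was lower, near the 3.16% of all genes: the lipid activator gene Gm2a (0.561, 0.374 to 0.831). The 31 immune signalling genes had a median log2 ratio of -0.07. Among CSF1 axis genes Spi1, which encodes PU.1, stood at 478 and 494 CPM. In iron handling the haem oxygenase gene Hmox1 was lower (1552 and 1003 CPM, 0.646, 0.564 to 0.739) with 50.2% of control UMIs in 3 cells, and the biliverdin reductase gene Blvra was higher (24 and 44 UMIs, 1.79, 1.06 to 3.07).

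**Figure D5:**
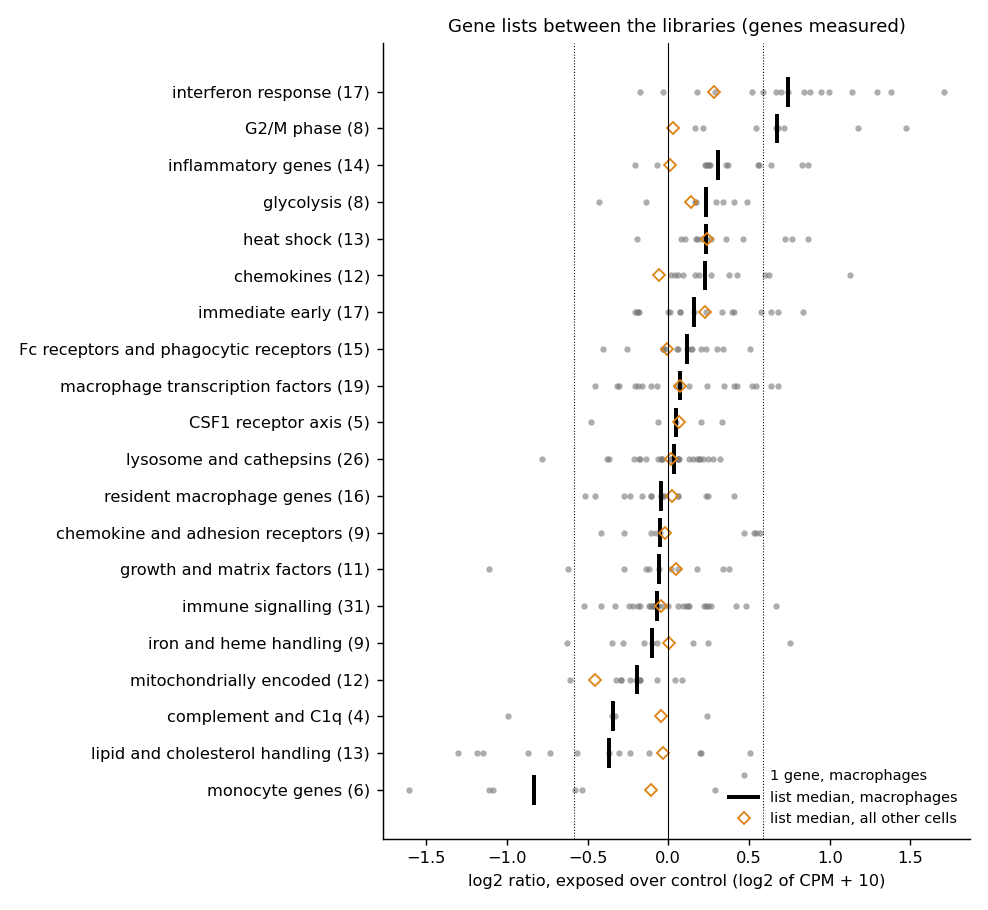
Log2 ratio of exposed over control (x axis, log2 of CPM + 10) for each measured gene of each list in macrophages (grey points), with the list median in macrophages (black bars) and in all other cells (open diamonds); dotted lines mark 1.5-fold and the number of genes measured stands in brackets. The interferon response median is 0.74 in macrophages and 0.29 in other cells, the monocyte gene median -0.83, and the resident macrophage, lysosome and Fc receptor medians lie near 0.

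Of 12 measured chemokine genes 3 were over 1.5-fold higher, against 7.25% of all genes measured, a count that ran from 1 to 4 over the alternative settings. All 12 ratios lay above 1, with a median log2 ratio of 0.23, but 7 of the 12 fell below 1 in at least 1 alternative setting, among them Ccl2 at -0.51 on the log2 scale without its top 3 cells. With median-of-ratios scaling Ccl7, Ccl12 and Ccl24 lay just below 1. Ccl4, which draws monocytes and lymphocytes, had 529 UMIs in 40 control and 837 UMIs in 26 exposed macrophages (1.54, 1.38 to 1.72), so fewer exposed cells held more of it. The neutrophil-drawing genes Cxcl2 and Cxcl1 had ratios of 1.52 (1.31 to 1.77) and 2.32 (1.48 to 3.71), with 95.7% of exposed Cxcl1 UMIs in 3 cells. At least 2 chemokine genes were found in 82.8% and 83.2% of macrophages. Of 14 inflammatory genes 3 were over 1.5-fold higher, against the same 7.25%: Tnf had 38 and 74 UMIs (1.90, 1.27 to 2.89), its feedback inhibitor gene Tnfaip3 37 and 70 (1.84, 1.22 to 2.83), and Cd83, a surface protein of activated antigen-presenting cells, 186 and 298 (1.56, 1.30 to 1.89). Il1b, encoding interleukin-1 beta, stood at 670 and 801 CPM, a ratio of 1.20.

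MHC class II genes, which present antigen to helper T cells, were sparse. Over 6 listed genes the sums were 99 and 228 UMIs, a ratio of 2.25 (1.77 to 2.87), against 1.11 (1.04 to 1.17) in other cells. Of 8 dendritic cell markers 0 were listed for both libraries, so dendritic cells among the chosen cells could not be looked for. Cd74, the invariant chain, had 46 UMIs in 22 control and 147 UMIs in 27 exposed macrophages, and 61.2% of the exposed UMIs lay in 3 cells. Of the 6 genes only Cd74 and H2-DMa passed the UMI minimum, and H2-DMa went the other way. The log2 ratio of H2-DMa was -0.22, within 1.5-fold. It ran from -0.41 to -0.16 over the 12 alternative settings in which H2-DMa was measured. H2-Ab1 had 0 UMIs in control and 18 UMIs in 4 exposed macrophages, and H2-Aa 2 and 13. Cells with at least 2 of these genes numbered 14 in each library (11.5% and 14.7%), a difference of 3.26 points (-5.70 to 12.9) that included 0.

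Immediate early genes and heat shock genes, which respond to handling and stress, had like ratios of summed UMIs in macrophages and in other cells. The immediate early sum had a ratio of 1.24 (1.19 to 1.29) in macrophages and 1.25 (1.24 to 1.26) in other cells, and the heat shock sum 1.21 (1.17 to 1.26) and 1.21 (1.20 to 1.21). In the median cell, however, immediate early genes took 0.759% of control and 1.37% of exposed macrophage UMIs, against 0.357% and 0.421% in other cells, and by class their sum ratio ran from 1.00 in endothelium to 1.40 in tubule cells. Past 1.5-fold, 3 of 17 and 3 of 13 against 7.25% of all genes, were Ier5 (1.81, 1.41 to 2.34), Klf2 (1.61, 1.41 to 1.83) and Atf3 (1.56, 1.33 to 1.84), and the chaperone genes Hsp90aa1 (1.82, 1.64 to 2.03), Hspd1 and Hspb1. Mitochondrially encoded genes had a median log2 ratio of -0.19 in macrophages and -0.46 in other cells.

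Markers of other cell types were searched among the macrophages. No T or NK cell marker UMI was found, but only 1 of 6 such markers was listed. Of 8 dendritic cell markers and 5 platelet and megakaryocyte markers 0 were listed, so those cells could not be searched for. Red cell markers summed to 305 UMIs in the control, 303 of them in 1 cell, and to 1 UMI in the exposed library. Neutrophil markers summed to 55 and 265 UMIs, with 256 of the latter in 1 exposed cell, so no neutrophil gene is given a direction. Of B cell markers, Cd79a and Igkc were at 0 in both libraries and Ms4a1 had 0 UMIs in control and 1 in exposed macrophages. Yet Ighm, the mu heavy chain gene, had a UMI in 32 control (26.2%) and 37 exposed macrophages (38.9%), against 0.179% and 0.312% of other cells, which had the higher median depth. Cd79b had a UMI in 23.0% and 36.8% of macrophages against 2.14% and 3.24% of other cells. These B cell genes were singled out after their values were seen.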

How the data were processed

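UMI counts per gene and cell were deposited by the authors as whole numbers without normalization. Cell Ranger 2.2.0 and build mm10 are named per the submitters' processing notes. Each cell's percent of mitochondrial UMIs and its hybrid doublet score come from the authors' deposited table of cells, per the file headers. That score was the doublet treatment; no caller was run. The authors' log2 values and clusters were not used. No source used here gives how the authors chose genes and cells.

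The macrophages, gene lists and comparisons were chosen with earlier results of these data known. Only genes listed for both libraries were used (8930, of which 8905 matched a RefSeq or GENCODE symbol). UMIs were summed over macrophages per library and scaled to CPM. Log2 ratios add 10 CPM to each level, which understates the change of low genes. Shares carry Clopper-Pearson, differences of shares Newcombe, CPM exact Poisson and ratios exact conditional binomial 95% intervals. Comparison classes needed at least 3 of their markers (nephron progenitors 2) and no other class. Named genes were the 25 leading macrophages over other cells with a UMI in 20% of macrophages of each library, the 10 highest and 10 lowest between libraries and the 5 each way departing most from other cells with a UMI in 10% of macrophages of either library, list genes and the rule genes; some genes these rules name are not reported here. Python 3.11.15, numpy 2.4.6, scipy 1.17.1, pandas 2.3.3 and matplotlib 3.10.9 were used; the ratio, share and thinning steps were tested on simulated data.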

Additional observations from a re-analysis of the deposited data

Results flagged for a closer look

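Genes listed for 1 library only were left out of every comparison, since the other library's level is not known: 660 (control) and 615 (exposed). Some were well measured in macrophages and at least 4-fold higher there than in other cells of the same library, with 10 CPM added. In the control library these included Clec4a3, a C-type lectin gene, with 87 UMIs in 56 of 122 macrophages. The phosphatase gene Ptpn6 had 50 UMIs, the lysophospholipid receptor gene Gpr34 had 47, the haemoglobin scavenger receptor gene Cd163 had 47 in 28 cells, and AB124611 had 45. In the exposed library the nucleotide receptor gene P2ry6 had 85 UMIs in 48 of 95 macrophages, the inhibitory receptor gene Lair1 had 71, the cytokine gene Il1a had 65 in 16 cells, and the interferon-inducible gene Ifi204 and Evi2a had 53 each. These genes were singled out by their macrophage UMIs, and no difference between libraries is drawn from them.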

How the results depend on the processing

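The share difference (0.340 to 0.423 points) and the count of genes 4-fold higher in macrophages (228 to 276) stayed close to the reported 0.383 and 236 in every alternative run for them. The 201 genes past 1.5-fold became 117 with cells thinned to 2000 UMIs, 104 with 50 CPM added, 732 with a minimum of 20 UMIs, 71 with a minimum of 100, and 129 without each gene's top 3 cells; fewer or more genes are measured in all of these but the second. In 9 other settings it lay between 179 and 242. Of 62 named or listed genes past 1.5-fold, 38 stayed past it in every setting in which they were measured, 10 of the 12 interferon genes among them. The exceptions there were B2m and Psmb9. The UMI minimum was applied again in each of the 14 settings, so low genes dropped out of some untested. Of these 10, Bst2, Ifi27l2a, H2-K1, H2-D1 and Psmb8 were measured in all 14. Rtp4 and Oasl2 were measured in 12, and Ifit3, Isg15 and Rsad2 in 11. The interferon median ranged from 0.65 to 0.81 and the G2/M median from 0.26 to 0.95. The G2/M share difference ranged from 18.3 to 25.6 points. Among these 62 genes the sign turned in 4: with at least 3 of 8 markers S100a8 came to -0.0783 and S100a9 to -0.183, with hybrid-scored cells kept Sparc came to 0.00268, and with each cell weighted equally Ube2c came to -0.10; the cause was not tested. Of all 267 named or listed genes, most of them within 1.5-fold, 77 lay on both sides of 0 over the settings. Ccl4, Thbs1, Vim, Fabp4, Cxcl2, Hspb1, Hspd1, Hmgb2, Birc5, Hmox1, Gm2a, Atf3, Cd83, Blvra, Apoc1, Col3a1 and mt-Nd3 fell within 1.5-fold in at least 1 setting. No paired analysis was possible because each group has 1 library. Depth limits low genes: 50 UMIs over 217 cells leave wide intervals, and these understate the error of genes whose UMIs sit in few cells.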

Other observations

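Further members of the gene lists were found in the gene list of 1 library alone. In the control library the hyaluronan receptor gene Lyve1, a mark of vessel-associated macrophages, had 38 UMIs in 15 of 122 macrophages, or 108 CPM, against 0.596 CPM in other cells. The transcription factor gene Irf5 had 43 UMIs in 33 control macrophages. The exposed library alone listed further interferon response genes: Irf7, which drives interferon production, had 40 UMIs in 31 of 95 macrophages, Phf11b 35 in 25, Ifi47 25 in 17, Ifit2 19 in 14 and Ifit1 8 in 8. The scavenger receptor gene Msr1 had 42 UMIs in 27 exposed macrophages and the cytokine gene Il18 had 47 in 36. Il34, a ligand of the CSF1 receptor, had 0 UMIs in exposed macrophages (up to 10.2 CPM by its exact Poisson interval) and 111 UMIs, or 4.45 CPM, in other exposed cells.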
